A study of Mus musculus with 6 samples.

Results

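The genes described here encode 9 enzymes that carry acetyl-CoA through mevalonate and the isoprenoid diphosphates to squalene epoxide: Acat2, Hmgcs1, Mvk, Pmvk, Mvd, Idi1, Fdps, Fdft1 and Sqle. They were picked by gene symbol, a rule that uses no measured value but was set with earlier results of these data known, from the 55401 genes of the deposited liver RNA-Seq table, and all 9 were found and were expressed highly enough to be tested. Livers came from 3 WT and 3 Asgr1-/- male mice of a C57BL/6 background (C57/BL6 in the labels), 13 weeks old and fasted overnight, with 1 library per mouse. The knockout was made by injecting Cas9 and paired guides into zygotes, crossing the founders to C57BL/6 mice and intercrossing heterozygotes, so the deletion is carried in the germ line and is not limited to the liver. ASGR1 is a subunit of the hepatocyte receptor that takes up desialylated glycoproteins. The comparison asked how its loss alters liver mRNA.

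These enzymes act in the cytosol and the endoplasmic reticulum membrane. The early steps build and phosphorylate mevalonate, the middle steps turn it into isopentenyl and farnesyl diphosphate, and squalene synthase and squalene epoxidase then commit the carbon to sterols, while farnesyl diphosphate can also leave for protein prenylation, dolichol and ubiquinone. The genes are textbook targets of SREBP2, a transcription factor held in the endoplasmic reticulum when sterols are plentiful, and the liver is a main site of the pathway.

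Promoter sequence is shown for 3 of the genes, since SREBPs are known to act through short promoter motifs beside NF-Y sites. The mRNAs of all 9 genes were lower in the Asgr1-/- livers, most of all in liver 2, so this does not set the 3 apart. The 3 include the only window with a sterol response core and the window with the most NF-Y boxes, and do not stand for the rest. RefSeq windows of 250 bases upstream of the start were matched for 6 of the 9 genes (Acat2, Hmgcs1, Mvk, Pmvk, Mvd and Idi1), on build GRCm38.p6. Capitals mark the core of the sterol response element (TCACNCCA, N being any base) and the NF-Y box (CCAAT, or ATTGG where it lies on the other strand), each searched on both strands, and each sequence reads 5′ to 3′ on the strand of its gene. The windows are chr13:119690101-119690350 on the plus strand (Hmgcs1), chr5:114444019-114444268 on the plus strand (Mvk) and chr8:122443423-122443672 on the minus strand (Mvd).
Hmgcs1: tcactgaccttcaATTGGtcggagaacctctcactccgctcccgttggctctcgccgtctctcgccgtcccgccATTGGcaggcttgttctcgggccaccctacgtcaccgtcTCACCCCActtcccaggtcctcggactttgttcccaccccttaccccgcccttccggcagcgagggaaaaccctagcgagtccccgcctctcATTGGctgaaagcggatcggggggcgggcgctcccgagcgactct
Mvk: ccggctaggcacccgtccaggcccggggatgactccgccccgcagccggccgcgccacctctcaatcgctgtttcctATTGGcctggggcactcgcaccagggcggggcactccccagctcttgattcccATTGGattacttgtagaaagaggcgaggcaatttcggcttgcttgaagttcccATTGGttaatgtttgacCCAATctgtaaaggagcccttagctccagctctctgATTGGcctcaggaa
Mvd: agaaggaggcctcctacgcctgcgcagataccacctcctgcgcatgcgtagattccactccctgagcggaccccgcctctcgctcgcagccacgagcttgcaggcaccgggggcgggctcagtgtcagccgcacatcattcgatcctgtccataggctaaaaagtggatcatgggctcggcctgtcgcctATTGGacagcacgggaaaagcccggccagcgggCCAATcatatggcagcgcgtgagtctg
The sterol response core occurred once in the Hmgcs1 window, as TCACCCCA 137 bases before the start, and in 0 of the other 5 matched genes. Of all 32851 promoters in the table, 3.67% held this core, and 4.20% of all genes had it in at least 1 promoter. NF-Y boxes were found 3 times in Hmgcs1, 5 times in Mvk and 2 times each in Mvd and Idi1, and 1 time in the first of the Pmvk starts. The Acat2 window held 0, so that 5 of 6 genes had the box, against 37.5% of all genes and 33.8% of all promoters. The box was not particular to these enzymes. Of 10 matched genes of late synthesis, from squalene epoxide to cholesterol, 10 had the NF-Y box and 1 had the sterol response core. No NF-Y box overlapped the Hmgcs1 core. The Sp1 box (GGGCGG, not capitalised) was in 5 of the 6 genes, all but Pmvk, against 35.4% of all genes and 32.7% of all promoters. A match is a description of letters in a window and does not show that a factor binds there.

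All 9 mRNAs were lower in each Asgr1-/- liver than in each WT liver, by 37.3% (Pmvk) to 69.0% (Hmgcs1) in the fitted fold change, and 10.9% of all tested genes likewise had no overlap with Asgr1-/- below WT. None of the 9 passed the threshold used for a called gene, an adjusted p under 0.05 with a fold change above 1.5 in edgeR's quasi-likelihood test, and among all 10167 genes tested 0.295% were called in either direction and 0.157% as lower. All 9 had an unadjusted p under 0.05 in the same test and were lower, which held for 8.20% of the tested genes. The median log2 fold change was -1.09 over the 9 genes and -0.02 over all tested genes. The median standard error was 0.39 for these genes and 0.15 for all tested genes. This standard error draws on both groups, and the enzymes varied more among the Asgr1-/- livers. The SD of log2 CPM was 0.08 (Sqle) to 0.47 (Hmgcs1) in WT and 0.51 (Acat2) to 1.16 (Hmgcs1) in Asgr1-/- livers. The spread of all genes within each group was not set beside these values. For a single gene the exact permutation test of 3 livers against 3 gave p = 0.1 in all 9 cases, the smallest value the design allows. DESeq2 on the same genes called 2 of the 9, Acat2 and Fdft1, against 2.44% of its tested genes in either direction. edgeR without the filter on low genes called 9 of the 9, against 1.88% of 24757 genes. In bulk liver, fewer expressing cells and less mRNA per cell cannot be told apart.

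**Figure D1:**
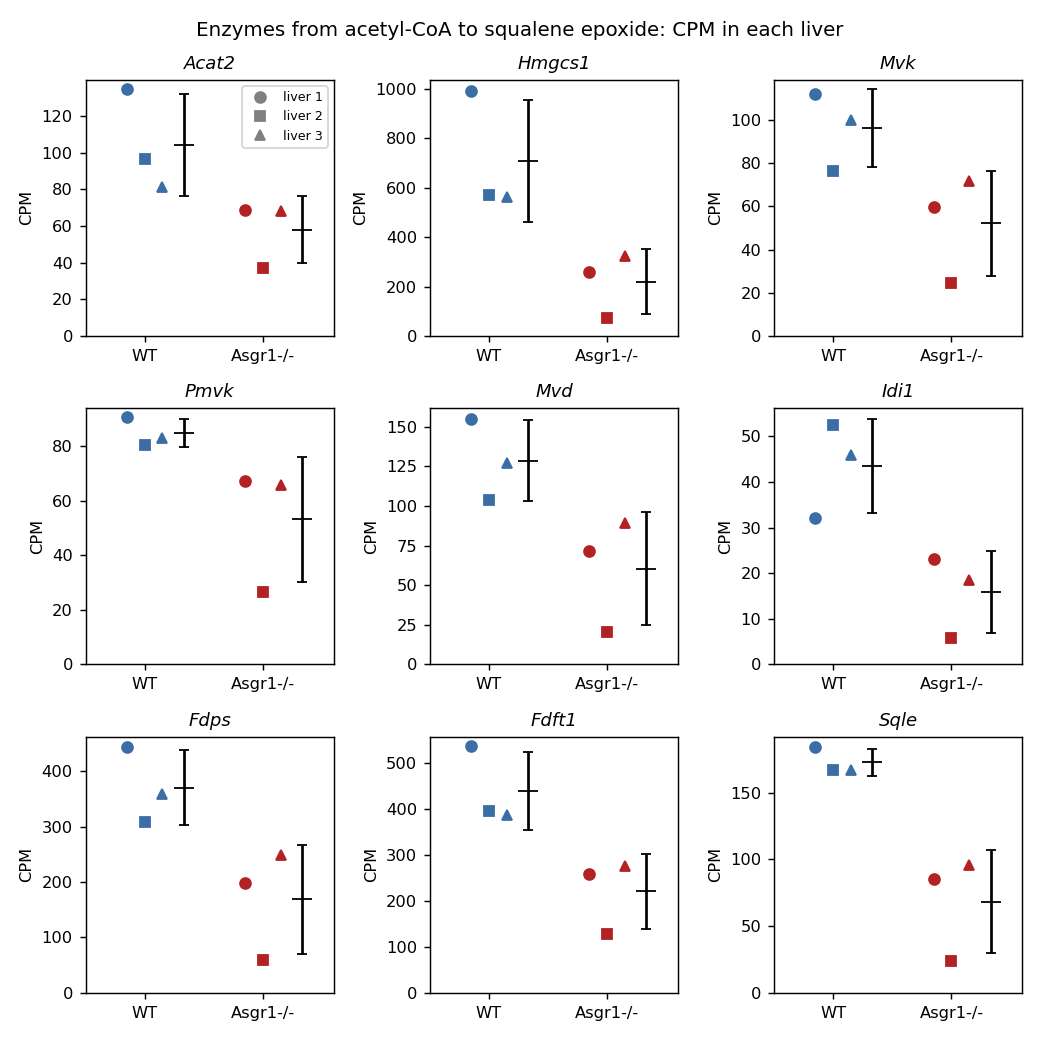
CPM (counts scaled to a common library size, y axes from 0, 1 panel per gene) in each liver, with WT in blue and Asgr1-/- in red, symbols giving the liver number, and bars giving the mean ± SD of 3 mice. In all 9 panels the red points lie below the blue ones, and Asgr1-/- liver 2 (red square) is the lowest.

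The first enzymes make the carbon skeleton of mevalonate. Acat2, the cytosolic thiolase that joins acetyl-CoA units into acetoacetyl-CoA (chr17:12942890-12960747, GRCm38, minus strand), had 135, 96.5 and 81.4 CPM in WT livers 1, 2 and 3, against 68.8, 37.2 and 68.3 CPM in Asgr1-/- livers 1, 2 and 3. The lowest WT liver lay 1.18-fold above the highest Asgr1-/- liver, and Asgr1-/- livers 1 and 3 were nearly equal. The log2 fold change was -0.84 (SE 0.25, 95% interval -1.41 to -0.28, edgeR adjusted p = 0.170). Part of the Acat2 signal is uncertain, because 39.1% of the 50-base stretches in its annotated transcripts also occur in its paralog Acat3, and 11.2% occur in Tcp1 as well, all of them among those shared with Acat3. Acat3 had 190, 197 and 183 CPM in WT and 148, 157 and 172 CPM in Asgr1-/- livers, a log2 fold change of -0.26 (edgeR adjusted p = 0.276). Tcp1 had a log2 fold change of 0.18 and the mitochondrial thiolase Acat1 one of -0.27, with edgeR adjusted p of 0.428 and 0.371.

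Hmgcs1, the cytosolic synthase that adds a further acetyl-CoA to give HMG-CoA (chr13:119690379-119708260, plus strand), had 990, 568 and 563 CPM in WT livers and 259, 73.1 and 325 CPM in Asgr1-/- livers. WT liver 1 stood above the other WT livers, and Asgr1-/- liver 2 stood far below all others, at 10.3% of the WT mean. The log2 fold change was -1.69 (SE 0.46, 95% interval -2.73 to -0.65, edgeR adjusted p = 0.143), the lowest of the 9 fitted values. An antisense gene, Gm48342, shares 557 exon bases with Hmgcs1 and had at most 26 counts in any liver.

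Mvk, Pmvk and Mvd convert mevalonate to isopentenyl diphosphate. Mvk, the kinase that puts the first phosphate on mevalonate (chr5:114444269-114460591, plus strand), had 112, 76.6 and 100 CPM in WT livers and 59.7, 24.7 and 71.9 CPM in Asgr1-/- livers. The groups came close to each other, since the lowest WT liver was 1.07-fold above the highest Asgr1-/- liver. Its log2 fold change was -0.88 (SE 0.32, 95% interval -1.61 to -0.15, edgeR adjusted p = 0.246). Pmvk, the kinase of the next phosphorylation (chr3:89454541-89469013, plus strand), had 90.7, 80.6 and 83.1 CPM in WT livers and 67.2, 26.6 and 65.6 CPM in Asgr1-/- livers. The WT livers differed by 1.12-fold at most, whereas the Asgr1-/- livers differed by 2.53-fold because of liver 2. The log2 fold change of Pmvk was -0.67 (SE 0.29, 95% interval -1.32 to -0.03, edgeR adjusted p = 0.305), nearest to 0 among the 9. Mvd, the decarboxylase that yields isopentenyl diphosphate (chr8:122433601-122443422, minus strand), had 155, 104 and 127 CPM in WT livers and 71.7, 20.5 and 89.2 CPM in Asgr1-/- livers. Asgr1-/- liver 3 came within 1.16-fold of WT liver 2, and liver 2 was at 15.9% of the WT mean. The fitted value for Mvd was -1.09 on the log2 scale (SE 0.42, 95% interval -2.03 to -0.14, edgeR adjusted p = 0.263).

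Idi1 and Fdps handle the isoprenoid diphosphates. Idi1, the isomerase that makes dimethylallyl diphosphate (chr13:8885501-8892451, plus strand), had 32.2, 52.4 and 45.8 CPM in WT livers and 23.1, 5.76 and 18.6 CPM in Asgr1-/- livers. It departed from the other 8 genes in WT liver 1, which was the lowest WT liver for Idi1 and the highest WT liver for each of the others. Its log2 fold change was -1.46 (SE 0.40, 95% interval -2.37 to -0.55, edgeR adjusted p = 0.146). Its paralog Idi2 had 1 count in WT liver 1 and 0 in the other livers, and was not tested. Fdps, the prenyl transferase that makes farnesyl diphosphate (chr3:89093588-89101959, minus strand), had 443, 309 and 359 CPM in WT livers and 199, 58.9 and 249 CPM in Asgr1-/- livers. Asgr1-/- livers 1 and 3 stood at 53.7% and 67.1% of the WT mean, and liver 2 at 15.9%. The log2 fold change was -1.13 (SE 0.41, 95% interval -2.06 to -0.20, edgeR adjusted p = 0.244). A protein-coding gene on the same strand, Gm43738, shares 1124 exon bases with Fdps, 26.7% of the Fdps exons, and had 0 counts in every liver. How reads in the shared bases were counted is not given in the sources used here, and FPKM of Fdps divides by its full exonic length.

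Fdft1 and Sqle open the sterol branch. Fdft1, squalene synthase (chr14:63145150-63179578, minus strand), had 537, 395 and 387 CPM in WT livers and 259, 128 and 277 CPM in Asgr1-/- livers. The lowest WT liver was 1.40-fold above the highest Asgr1-/- liver. Its log2 fold change was -0.99 (SE 0.27, 95% interval -1.59 to -0.39), with the smallest edgeR adjusted p of the 9, 0.134. Fdft1 overlaps Ctsb, a lysosomal protease gene on the opposite strand, over 774 exon bases, and whether the counting used strand is not given in the sources used here. Ctsb had 490, 631 and 748 CPM in WT and 504, 524 and 483 CPM in Asgr1-/- livers. Sqle, squalene epoxidase (chr15:59315077-59331192, plus strand), had 184, 167 and 167 CPM in WT livers and 85.4, 24.2 and 95.6 CPM in Asgr1-/- livers. It had the tightest WT group of the 9, with a range of 1.11-fold, and the widest gap between groups, 1.74-fold from the lowest WT to the highest Asgr1-/- liver. The fitted log2 value of Sqle was -1.34 (SE 0.39, 95% interval -2.22 to -0.45, edgeR adjusted p = 0.167).

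Most of the enzymes shared the highest and the lowest liver, with Asgr1-/- liver 2 the lowest for all 9 and WT liver 1 the highest for all but Idi1. The order of the livers between these differed from gene to gene. Summed over the 9 genes, WT livers 1, 2 and 3 held 2680, 1850 and 1920 CPM, and Asgr1-/- livers 1, 2 and 3 held 1090, 398 and 1260 CPM. The median of the 9 genes, as log2 CPM less the WT mean, was 0.27, -0.14 and -0.03 in the WT livers and -0.82, -2.63 and -0.58 in the Asgr1-/- livers, while the median of all tested genes lay between -0.01 and 0.00 in every liver. Relative to the WT mean, the 9 genes stood at 36.7% to 79.2% in Asgr1-/- liver 1, at 10.3% to 35.7% in liver 2 and at 42.7% to 77.4% in liver 3. In liver 2 of the knockouts, 8 of the 9 enzymes (all but Acat2) had under 0.5 times the CPM of each other knockout liver. Only 67 of the tested genes, 0.659%, were that low there, and none of the 9 enzymes was that low in any of the other 5 livers. The 67 include Lss, Cyp51, Msmo1 and Nsdhl, genes of the steps after squalene epoxide. Lss, for example, had 41.3 CPM in Asgr1-/- liver 2, against 107 and 114 CPM in Asgr1-/- livers 1 and 3. The library of Asgr1-/- liver 2 had the lowest total of the 6 by a small margin, with 19842637 counts. WT liver 3 had 20134006 and the largest library 22080809. The mitochondrial share of counts in Asgr1-/- liver 2 was 3.46%, within the WT range of 2.92% to 3.68%. It was the highest share among the knockouts, with 2.87% in liver 1 and 2.56% in liver 3. The values are scaled to library size, and the part of depth in them was not tested.

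**Figure D2:**
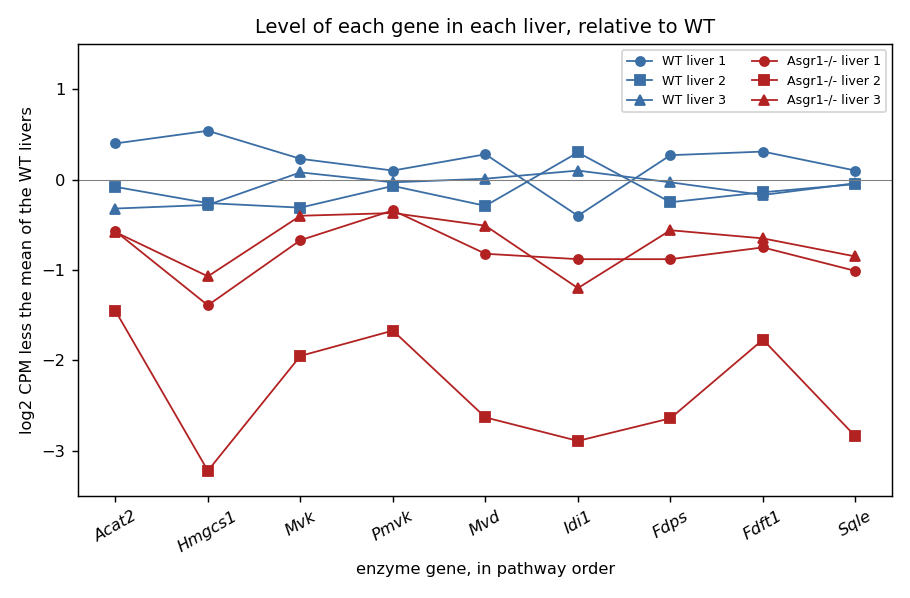
Log2 CPM less the mean of the WT livers (y axis) for each gene in pathway order (x axis), with 1 line per liver, WT in blue and Asgr1-/- in red. The line of Asgr1-/- liver 2 (red squares) runs from -1.45 at Acat2 to -3.22 at Hmgcs1, below all other lines throughout.

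The size of the difference rested in part on Asgr1-/- liver 2, while its direction did not. Without that liver the median log2 fold change of the 9 enzymes was -0.70, against -1.09 with all 6 livers and -0.94 to -1.47 with any other liver left out. Hmgcs1 then had -1.26 and Idi1 -1.05, the lowest of the 9, and Pmvk had -0.34 and Mvk -0.53, the nearest to 0. No enzyme passed the adjusted threshold in edgeR with any 1 liver left out, and Sqle came closest, with an adjusted p of 0.0509 without Asgr1-/- liver 2 (log2 fold change -0.92).

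**Figure D3:**
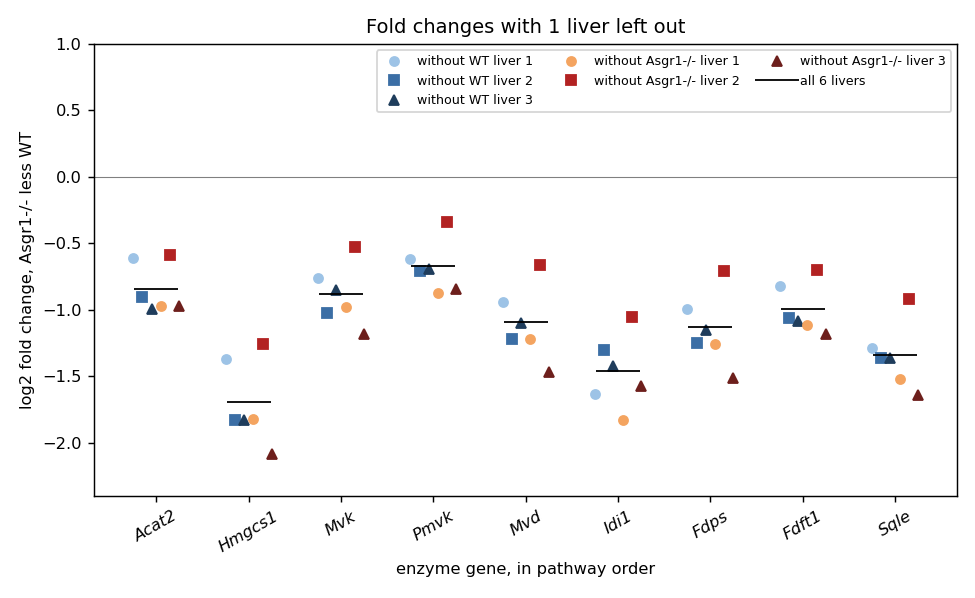
Log2 fold change of Asgr1-/- against WT (y axis) for each gene (x axis) with all 6 livers (black lines) and with each liver left out (symbols). All values are below 0, and for all 9 genes the value nearest to 0 is the one without Asgr1-/- liver 2 (red squares), which for Pmvk is -0.34.

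Levels were compared between genes as FPKM, which divides by exonic length. Hmgcs1 was the most abundant of the 9 in all WT livers, with a mean of 149 ± 51.1 FPKM (SD, n = 3 mice), and Fdft1 followed with 104 ± 19.5 FPKM (SD, n = 3 mice). In Asgr1-/- livers the order of these genes was reversed in livers 1 and 2, and livers 1, 2 and 3 had 57.62, 15.99 and 70.51 FPKM of Hmgcs1 and 64.27, 31.16 and 67.02 FPKM of Fdft1, ranges that overlap. Fdps, Mvd, Pmvk, Acat2, Mvk and Sqle followed in this order of WT means, from 85.4 ± 15.6 to 30.2 ± 1.70 FPKM (SD, n = 3 mice), and the WT ranges of neighbours in this order overlapped except between Mvd and Pmvk. Idi1 was the lowest of the 9 in every liver and did not overlap with Sqle in WT, with 8.88, 14.36 and 12.87 FPKM in WT livers and 6.73, 1.65 and 5.28 FPKM in Asgr1-/- livers.

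Ratios of FPKM within a liver are given for some pairs of the enzymes, not for all. Mvd over Fdps was 0.791, 0.761 and 0.803 in WT livers and 0.816, 0.787 and 0.812 in Asgr1-/- livers. These enzymes kept nearly the same ratio even in Asgr1-/- liver 2, where each was at 15.9% of its WT mean. Hmgcs1 over Pmvk was 4.07, 2.62 and 2.53 in WT livers and 1.44, 1.03 and 1.85 in Asgr1-/- livers. Hmgcs1 over Fdft1 was 1.65, 1.29 and 1.30 in WT livers and 0.897, 0.513 and 1.05 in Asgr1-/- livers. The groups did not overlap for either Hmgcs1 ratio, so the level of Hmgcs1 relative to Pmvk and to Fdft1 was lower in each Asgr1-/- liver than in each WT liver. An exact permutation test is again unable to go below p = 0.1. Hmgcs1 and Pmvk had the most and the least negative fitted values (-1.69 and -0.67), so their ratio adds no separate evidence. The groups overlapped for Mvd over Fdps, Mvk over Pmvk and Sqle over Fdft1. Fdft1 over Fdps overlapped between the groups but stood apart in Asgr1-/- liver 2, at 2.22 against 1.10 to 1.33 elsewhere. Sqle over Fdft1 was likewise apart in that liver, at 0.141 against 0.245 to 0.321 in the others.

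The genes that turn squalene epoxide into cholesterol were also lower. Of 11 late synthesis genes, 2 were called and fell, and all 11 fitted values were below 0, with a median log2 fold change of -0.93 and 9 of the 11 below all WT livers. Over all tested genes, 0.157% were called lower and 10.9% lay below all WT livers. Both calls were lost under limma and when WT liver 2, Asgr1-/- liver 1 or Asgr1-/- liver 3 was left out, and without Asgr1-/- liver 2 the single call was Cyp51. Sc5d alone was lost with filterByExpr, with the replicate block and without WT liver 1. The called genes were Hsd17b7, a sterol ketone reductase (90.0 ± 14.8 CPM in WT and 31.5 ± 7.78 CPM in Asgr1-/-, SD, n = 3 mice, log2 fold change -1.51, edgeR adjusted p = 0.0215), and Sc5d, a sterol desaturase (543 ± 66.6 and 285 ± 45.8 CPM, log2 fold change -0.93, edgeR adjusted p = 0.0467). The lowest fitted values were -1.63 for the methyl sterol oxidase Msmo1 and -1.51 for Cyp51, the lanosterol demethylase, whereas Ebp, a sterol isomerase, had -0.41. Hsd17b7 and Sc5d had standard errors of 0.19 and 0.15, against 0.25 to 0.46 for the 9 early enzymes, which had fitted values of like size and were not called. In Asgr1-/- livers 1, 2 and 3 the median of the late genes was -0.84, -1.53 and -0.75 as log2 CPM less the WT mean, beside -0.82, -2.63 and -0.58 for the early enzymes. The early genes were thus lower than the late ones in liver 2 and not in livers 1 and 3, a difference that was not tested.

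The isoprenoid branch genes, which draw farnesyl or isopentenyl diphosphate into other products or process prenylated proteins, were not lower in this way. Of 12 genes in this list, 11 were tested (Pdss1 was too low), 0 were called, and 3 had a fitted value below 0, with a median log2 fold change of 0.07. Of the 11, 1 lay below all WT livers, against 10.9% of all tested genes, and 4 lay above all WT livers. The share of all tested genes above all WT livers was not counted. By the same edgeR test 0 were lower at an unadjusted p under 0.05 and 1 was higher, Dhdds, and DESeq2 and limma also called 0. The lowest fitted values were those of Ggps1, geranylgeranyl diphosphate synthase (-0.36), and Icmt, which methylates prenylated proteins (-0.14), and the highest were those of Dhdds, a subunit of the dolichol-making prenyl transferase (0.37), and Fntb, a farnesyl transferase subunit (0.27).

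**Figure D4:**
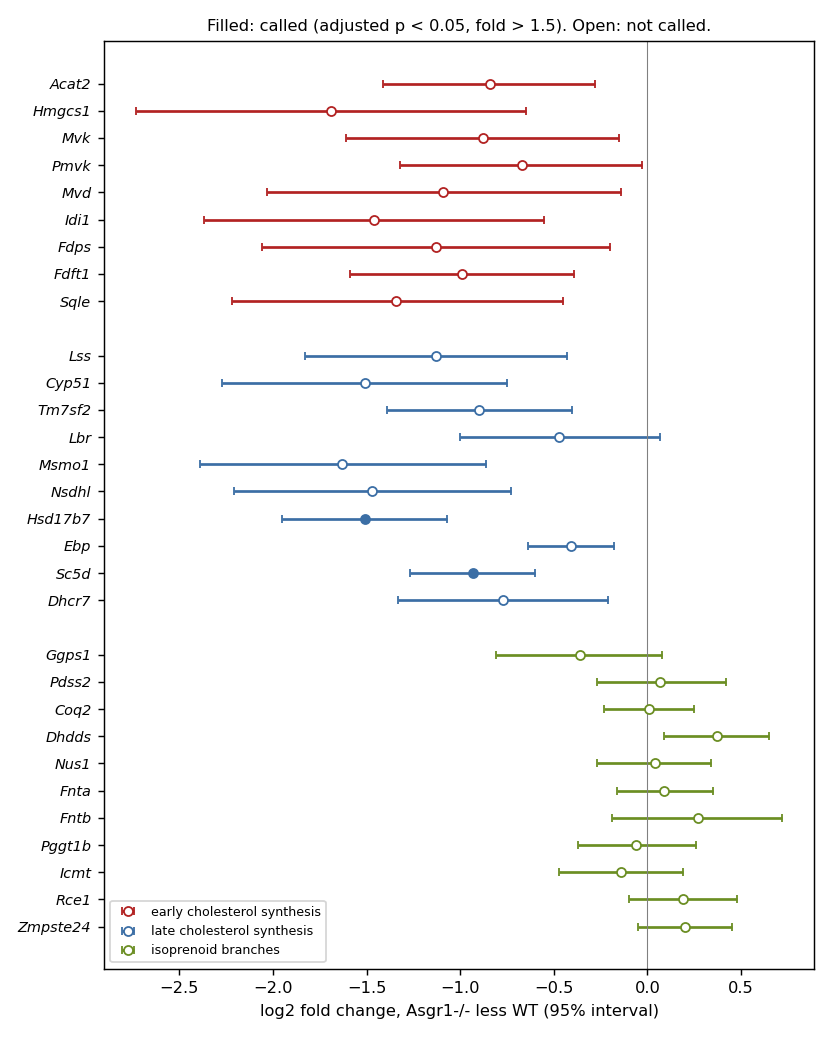
Log2 fold change of Asgr1-/- against WT with its 95% interval (x axis) for the 9 early enzymes (red), 10 of the late synthesis genes (blue) and 11 isoprenoid branch genes (green). Filled points (Hsd17b7 and Sc5d) were called, and the 9 early enzymes lie between -1.69 and -0.67 with intervals that stay below 0.

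The genes of SREBP control were measured beside the enzymes. Of the 6 tested, 0 were called by edgeR, and at an unadjusted p under 0.05 2 were lower and 1 was higher, beside 0.295% of all tested genes called and 8.20% lower at an unadjusted p under 0.05. Srebf2, which encodes SREBP2, had 137, 134 and 135 CPM in WT livers and 96.2, 70.2 and 94.5 CPM in Asgr1-/- livers, with a log2 fold change of -0.64 (edgeR adjusted p = 0.0756). Asgr1-/- liver 2 was again the lowest, and the groups did not overlap. Insig1, which encodes a protein that retains SREBPs in the endoplasmic reticulum and is itself an SREBP target, had 443, 514 and 523 CPM in WT livers and 285, 165 and 229 CPM in Asgr1-/- livers, with a log2 fold change of -1.12 (edgeR adjusted p = 0.0504). Insig2, its relative, was the opposite, with 73.2, 78.2 and 80.9 CPM in WT livers and 116, 152 and 115 CPM in Asgr1-/- livers, a log2 fold change of 0.72 (edgeR adjusted p = 0.0568). Liver 2 thus held the lowest Srebf2 and Insig1 and the highest Insig2 of the knockouts. Srebf1 overlapped between the groups, with a log2 fold change of 0.11. The part of these genes in the levels of the enzymes was not tested.

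Genes whose levels across the 6 livers most resembled the mean of the 9 enzymes were ranked by the root mean square difference of centred log2 CPM, as a description. Lss, lanosterol synthase and the next enzyme of the pathway, was the closest at 0.0691, below each of the 9 enzymes set against the mean of the others (0.161 for Fdps to 0.441 for Idi1), while the median of tested genes was 0.857. Nsdhl (0.180), Cyp51 (0.217), Msmo1 (0.248) and Dhcr7 (0.304), all late synthesis enzymes, followed, as did Rdh11 (0.263), a retinol dehydrogenase, and Snord55 (0.314), a small nucleolar RNA with a mean of under 1 CPM. The processed pseudogenes Gm3571 (0.137) and Gm5873 (0.209) were also among the 10 closest, and both share sequence with Fdps. Of the 50-base stretches in Gm3571, 52.8% occur exactly in Fdps transcripts, and for Gm5873 the share is 23.9%. The counts of Gm3571 were 12.7%, 14.2% and 11.9% of those of Fdps in WT livers and 12.4%, 12.2% and 11.6% in Asgr1-/- livers, a nearly fixed proportion while Fdps itself ranged from 58.9 to 443 CPM. Those of Gm5873 were 0.987%, 1.66% and 1.36% of the Fdps counts in WT and 1.14%, 1.62% and 1.31% in Asgr1-/- livers, a less even share. Whether reads from Fdps were counted for these pseudogenes was not tested.

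Of facts on the whole series, total counts ranged from 19842637 to 22080809 per library and mitochondrial genes held 2.56% to 3.68% of counts. The deleted gene Asgr1 had 11716 to 15894 counts in WT livers and 36 to 62 counts in Asgr1-/- livers. Hepatocyte markers held 132000 to 143000 summed CPM in WT and 119000 to 124000 in Asgr1-/- livers, with 0 of 12 called (1 lower at an unadjusted p under 0.05) and a median log2 fold change of -0.17. Kupffer cell markers varied more in WT (146, 356 and 895 summed CPM) than in Asgr1-/- livers (265 to 395), with 0 of 14 called and 0 at an unadjusted p under 0.05. All 14 Kupffer cell markers had a fitted value below 0, with a median log2 fold change of -0.58. Of the endothelial (14 tested), stellate (6), cholangiocyte (3) and erythroid (5) markers 0 were called by edgeR (at an unadjusted p under 0.05, 0, 0, 2 and 1), with median log2 fold changes of -0.14, 0.10, 1.20 and -0.23, and 1 of 1 tested lymphocyte marker, Ighm, fell (log2 fold change -2.24, edgeR adjusted p = 0.0215). Fatty acid synthesis genes had log2 fold changes from -0.84 to 0.89 with a median of 0.08 and 1 of 12 called (Fads2, log2 fold change -0.84, edgeR adjusted p = 0.0215). At an unadjusted p under 0.05 in edgeR, 4 of the 12 were lower and 2 were higher. Fasting response and clock genes had medians of 0.01 (10 tested) and -0.32 (9 tested) with 0 called by edgeR and 3 and 2 at an unadjusted p under 0.05. The part of these lists in the levels of the enzymes was not tested.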

How the data were processed

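RNA-Seq counts and FPKM of 6 livers were analysed (3 WT, 3 Asgr1-/-, 1 mouse each, grouped by GEO's labels). The deposited table holds raw counts made by the authors, who had the sequences processed by GENEWIZ, and the submitters' processing notes name GRCm38 and DESeq2 1.6.3. Aligner, counter and strand setting are not given in sources used here. The FPKM values deposited by the authors equal counts divided by exonic length and by the summed counts, within 0.0050. FPKM serves here only to compare genes and to filter. CPM was the counts scaled to library size with TMM factors.

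Testing covered 10167 genes whose FPKM averaged 1 or more, by edgeR's quasi-likelihood test on counts (two-sided, Benjamini-Hochberg adjustment). Calls required a fold change above 1.5 at an adjusted p below 0.05. The p-values set the difference between the groups against the spread between these mice. Alternatives were DESeq2, limma on log2(FPKM + 0.1) and log2(FPKM + 1), other filters and scalings, robust estimation, a replicate block and leaving out each liver. The code was tested on simulated data.

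The enzymes and gene lists were chosen with earlier results of these data known. Named genes were all 9 enzymes, called genes, paralogs and overlapping genes, the 2 lowest and 2 highest fitted values of the late synthesis, isoprenoid and SREBP lists (the remaining lists are given by counts), and the 10 genes most like the enzymes. A few genes that this rule names are not reported here. The study's methods name no pairing, so none was assumed in the main test. Deviations of livers of the same number in WT and Asgr1-/- had r = -0.142, 0.0392 and -0.0335 across genes. Livers of unlike number had r from -0.205 to 0.188. With so few livers per group, these values cannot decide whether livers were paired. Replicates differed beyond counting noise, with a chi-square per degree of freedom of 17.5 to 48.8 between replicates. Shared sequence was counted as exact 50-base stretches between GENCODE M21 transcripts of GRCm38, on either strand. Promoter sequences are RefSeq's, on GRCm38.p6. Fits used edgeR 4.0.16, DESeq2 1.42.0 and limma 3.58.1 under R 4.3.3, and tables and plots used pandas 2.3.3 and matplotlib 3.10.9 under Python 3.11.15.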

Additional observations from a re-analysis of the deposited data

How the results depend on the processing

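Fold changes of the 9 enzymes stayed negative in all 153 alternatives computed (17 per gene), and 13 of these passed the threshold that the main test did not. Of the 9, DESeq2 called 2 on the same genes and 2 on all genes (Acat2 and Fdft1, adjusted p of 0.0207 and 0.00359 on the same genes), edgeR on all genes with a count called 9, and 0 were called with any 1 liver left out. That unfiltered fit shrank dispersions far more (median prior degrees of freedom 165, against 5.3), and called 1.88% of 24757 genes. Of all tested genes, 30 were called by the main test, 248 and 272 by DESeq2 on the same and on all genes, 465 by edgeR without a filter, 70 at a mean FPKM of at least 0.1, 80 with robust estimation, 11 and 16 by limma with pseudocounts of 0.1 and 1, and 3 to 288 with 1 liver left out. Of the late synthesis genes, 2 were called by the main test, 7 and 5 by DESeq2 on the same and on all genes, 8 by edgeR without a filter, 1 with edgeR's filterByExpr, 0 and 0 by limma, and 0 to 5 with 1 liver left out (0 without WT liver 2 and without Asgr1-/- livers 1 or 3, 5 without WT liver 3, and 1, Cyp51, without Asgr1-/- liver 2). Isoprenoid branch genes gave 0 calls throughout. With the replicate block, 0 of the 9 enzymes (adjusted p from 0.0933 for Hmgcs1 to 0.222 for Pmvk), 1 late synthesis gene (Hsd17b7) and 23 genes in all were called. Scaling moved the median of all genes by at most 0.05 on the log2 scale.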
